A study of Mus musculus with 6 samples.

Results

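Liver breaks down the amino acids that the body does not use for protein and turns their nitrogen into urea. The 43 genes described here encode the enzymes of these routes and 1 carrier: the urea cycle (7 genes), aminotransferases (4), glutamine, proline and lysine breakdown (3), serine and glycine breakdown (7), tyrosine and tryptophan breakdown (8), histidine breakdown (4), sulfur amino acid metabolism (8) and branched-chain amino acid breakdown (2). They were taken by gene name from a list, and all 43 were found among the 30889 rows of the deposited table. The samples were livers of mice treated orally for 14 days, 3 libraries from mice given phosphate buffered saline (control) and 3 from mice given Emilia sonchifolia, a plant of the daisy family, as an extract in water (extract). Strain, sex, age and dose are not given in the labels, nor whether each library came from 1 animal, so each p-value reflects only how far the 6 libraries scatter, part of which may be technical. RNA was selected by its poly(A) tail and came from whole liver tissue, in which fewer cells of a type and less RNA per cell cannot be told apart.

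An amino acid usually loses its amino group first, by transfer to a keto acid or by direct release of ammonia, and its carbon skeleton then enters the citric acid cycle or glucose synthesis. The ammonia and the nitrogen of aspartate enter the urea cycle, which runs in hepatocytes, mainly those near the portal vein. Many of the enzymes are among the most abundant proteins of hepatocytes, and fasting, glucagon and glucocorticoids are known to raise the mRNA of several of them, among them Tat and Sds.

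After the extract, 20 of the 43 genes fell, 6 rose and 17 did not pass the test. The test was edgeR's quasi-likelihood test (two-sided) on the estimated counts, with a Benjamini-Hochberg adjusted p under 0.05 over 18071 genes, of which all 43 were part. Over all genes tested, 26.9% were called, 14.2% higher and 12.8% lower. Of the 43 genes, 60.5% were called, 14.0% higher and 46.5% lower. Abundant genes were called more often in general. Among the 3901 genes whose mean control level was at or above the lowest of the 43 (6.75 FPKM, fragments scaled to transcript length and to the mapped fragments of the library), 48.1% were called, 25.7% higher and 22.4% lower. The median log2 fold change of the 43 genes was -0.15, against -0.02 over all genes tested, and single genes ran from -1.53 (Sds) to 1.75 (Csad). Most changes were small: 19 of the 26 called genes changed by less than 0.5 on the log2 scale. Without the extract 1 library the number that fell was 13, and without the extract 3 library it was also 13. Tested against a fold of 1.2 in place of no change, 9 fell and 2 rose. The fall of Got2 turned into a rise when reads of its copies were counted with it, as given below.

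**Figure D1:**
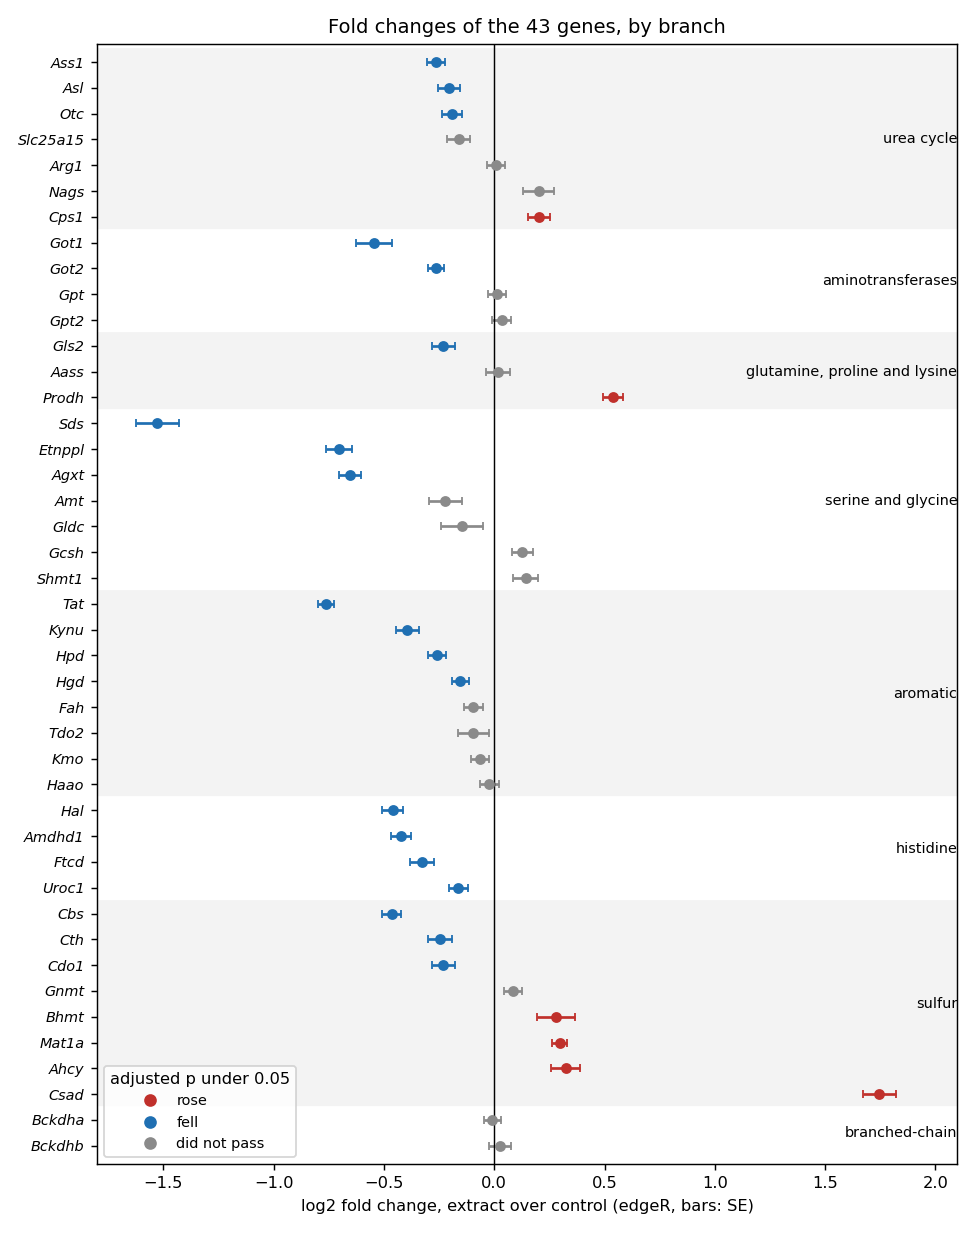
Log2 fold change (extract over control, x axis) of each of the 43 genes, grouped by branch, with bars of 1 standard error from edgeR and colours for genes that rose, fell or did not pass. Sds lies farthest to the left at -1.53 and Csad farthest to the right at 1.75, and the 8 tyrosine and tryptophan genes all lie below 0.

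Total counts were 51219533 to 61432016 in the control libraries and 52941399 to 56603387 in the extract libraries. Hepatocyte markers summed to between 48235 and 56694 FPKM in control and between 47176 and 47531 in extract, with 4 of 11 higher and 4 lower, and none was at 0 in any library. Markers of several other cell types were lower in extract, but not of all. Red cell markers fell in 8 of 9 tested (1280 to 1626 FPKM summed in control, 208 to 245 in extract), Kupffer cell markers in 11 of 12 (507 to 533, then 305 to 321), monocyte and neutrophil markers in 8 of 12 (384 to 457, then 174 to 181) and lymphocyte markers in 8 of 14 (87.1 to 147, then 38.5 to 47.2). Sinusoidal endothelium markers fell in 6 of 12 (69.1 to 75.8, then 55.6 to 57.9). Of 12 stellate cell markers 3 rose and 1 fell, with overlapping sums (86.1 to 105, then 85.3 to 93.7). Of 11 cholangiocyte markers tested 1 rose and 1 fell, also with overlapping sums (41.8 to 55.9, then 36.0 to 43.4). Kidney markers rose in 2 of 11 tested and fell in 0 (22.6 to 34.1, then 34.3 to 38.0). Skeletal muscle markers ranged from 0.917 to 314 FPKM among the control libraries and from 291 to 412 in extract, and pancreas markers from 6.22 to 81.9 and from 83.9 to 92.7, with 0 of 12 called in each list by edgeR, at an unadjusted p under 0.05 or by DESeq2. The part of these differences in the results below was not tested.

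The urea cycle genes moved little and not in 1 direction. Cps1, which makes carbamoyl phosphate from ammonia and commits it to the cycle, rose, while the enzymes of the next 3 steps, Otc, Ass1 and Asl, fell. Each of these changes was between 0.19 and 0.26 in size on the log2 scale.

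Cps1 stood at 396, 365 and 365 FPKM in control libraries 1 to 3 and at 412, 438 and 392 FPKM in extract libraries 1 to 3. On the FPKM scale the groups overlapped, since control 1 lay above extract 3. The log2 fold change on the count scale was 0.20 ± 0.05 (SE, n = 3 and 3; edgeR adjusted p = 0.0200), and the call was lost in 9 of 19 alternative settings, among them limma on FPKM as deposited and the fits without control 2, extract 1 or extract 2 (edgeR adjusted p = 0.0761, 0.0548 and 0.0825).

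Otc, which joins carbamoyl phosphate to ornithine to give citrulline, stood at 64.2, 60.3 and 62.2 FPKM in control and 53.0, 54.2 and 49.7 in extract. All 3 extract libraries were below all 3 control libraries, and the log2 fold change was -0.19 ± 0.04 (edgeR adjusted p = 0.0161). Ass1, which couples citrulline to aspartate, stood at 627, 671 and 616 FPKM in control and 517, 520 and 490 in extract. Here too the groups did not overlap, with a log2 fold change of -0.26 ± 0.04 (edgeR adjusted p = 0.00207). Ass1 has a copy, Gm5424, 99.5% identical over 1240 bases of its transcript, with a log2 fold change of -0.17 (edgeR adjusted p = 0.528). With the copy's counts added, Ass1 gave -0.25. Asl, which splits argininosuccinate into arginine and fumarate, stood at 85.6, 88.6 and 82.0 FPKM in control and 70.5, 76.3 and 66.3 in extract. It too was lower in every extract library, by 0.20 ± 0.05 on the log2 scale (edgeR adjusted p = 0.0184). The call for Otc was lost in 3 of 19 alternative settings, among them without extract 1 or extract 3 (edgeR adjusted p = 0.0663 and 0.0705). That for Asl was lost in 4, among them without control 2, extract 1 or extract 3 (edgeR adjusted p = 0.0721, 0.104 and 0.0703).

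Arg1, the arginase that releases urea and was at 419 to 443 FPKM in control, did not pass the test, with a log2 fold change of 0.01 ± 0.04 (398 to 428 FPKM in extract). Nags makes N-acetylglutamate, the activator that the Cps1 enzyme needs. Its log2 fold change was 0.20 ± 0.07 with overlapping groups (edgeR adjusted p = 0.0677). Slc25a15, the mitochondrial carrier that exchanges ornithine and citrulline, was at 37.3 to 41.0 FPKM in control and 31.6 to 34.9 in extract, and its log2 fold change of -0.16 ± 0.05 also missed the threshold (edgeR adjusted p = 0.0595). DESeq2 called both, Nags higher and Slc25a15 lower.

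Of 11 tested genes that supply or surround the cycle, taken from a list of 12, 5 rose and 4 fell. Glul, the glutamine synthetase of pericentral hepatocytes, rose by 0.55 ± 0.04 on the log2 scale. Car5a, the mitochondrial carbonic anhydrase that supplies bicarbonate to Cps1, rose by 0.86 ± 0.09, and Aqp9, a channel for glycerol and urea, by 0.59 ± 0.04. Slc25a22, a mitochondrial glutamate carrier, had a log2 fold change of -0.55 ± 0.05. Since the cycle is strongest in periportal hepatocytes, zone markers are given beside it: of 16 periportal genes outside the 43, 4 rose and 7 fell, and of 21 pericentral genes 17 rose and 1 fell. The shares over all genes tested were 14.2% higher and 12.8% lower. A gene on more than 1 list was counted in each. The part of zonation in the urea cycle values was not tested.

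Both aspartate aminotransferases were lower and both alanine aminotransferases did not pass the test. Got1, the cytosolic aspartate aminotransferase, stood at 49.9, 54.6 and 59.3 FPKM in control and 35.7, 39.6 and 32.4 in extract. The groups were well apart, and the log2 fold change was -0.54 ± 0.08 (edgeR adjusted p = 0.00232). Gpt, the cytosolic alanine aminotransferase, and Gpt2, the mitochondrial one, had log2 fold changes of 0.01 ± 0.04 and 0.03 ± 0.04, with overlapping groups.

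Got2, the mitochondrial aspartate aminotransferase, stood at 79.0, 77.8 and 77.7 FPKM in control and 62.2, 63.5 and 61.4 in extract, and its log2 fold change was -0.26 ± 0.03 (edgeR adjusted p = 0.00107). This call depends on how reads were shared with 2 near-identical copies on chromosome 5. Gm10874, 98.8% identical to the Got2 transcript over 1637 bases, went from 990, 1191 and 1075 counts in control to 5790, 6571 and 6386 in extract (log2 fold change 2.57 ± 0.05). Got2-ps1, 99.1% identical over 1293 bases, went from 199, 211 and 156 counts to 2043, 1782 and 2115 (3.44 ± 0.13). Got2 itself had 23275, 27622 and 23774 counts in control and 19294, 20736 and 20009 in extract. When the counts of the copies were added to Got2, the direction turned: the log2 fold change became 0.16 (edgeR adjusted p = 0.00998), and the 43 genes held 7 that rose and 19 that fell. Which of the 3 loci the reads came from cannot be told apart in a table of counts per gene.

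**Figure D2:**
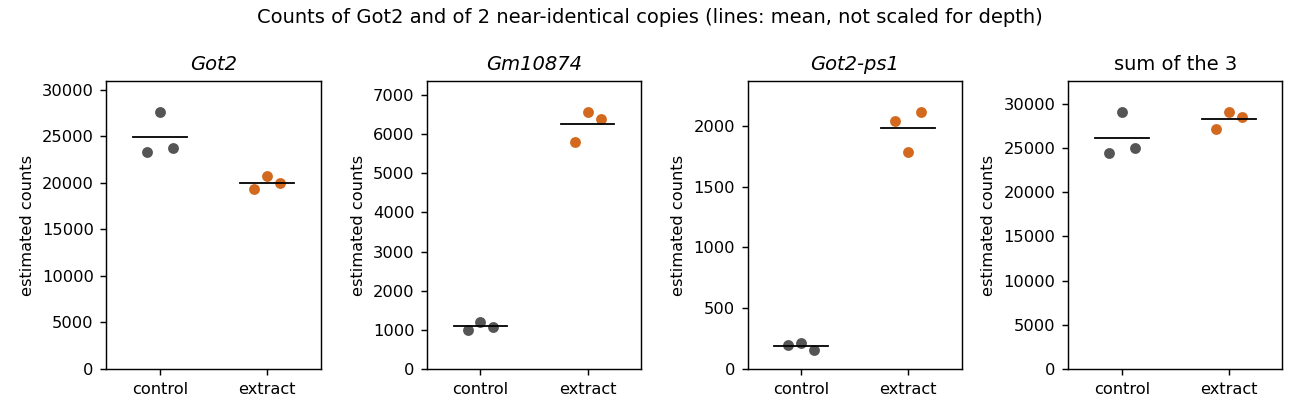
Estimated counts per library (y axis, linear from 0, a separate scale in each panel) of Got2, of its copies Gm10874 and Got2-ps1, and of the sum of the 3, in the 3 control and 3 extract libraries, with the group mean as a line. Got2 lies lower in extract, both copies lie higher, up to 6571 counts for Gm10874, and the mean of the sum is not lower.

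Gls2, the glutaminase of liver mitochondria, fell: it stood at 52.3, 56.0 and 55.6 FPKM in control and 42.6, 47.8 and 43.6 in extract. No extract library reached the lowest control library (log2 fold change -0.23 ± 0.05, edgeR adjusted p = 0.0125). The call for Gls2 was lost in 4 of 19 alternative settings, among them without control 2, extract 1 or extract 3 (edgeR adjusted p = 0.0523, 0.0819 and 0.0530). Prodh, the first enzyme of proline breakdown, rose, from 15.9, 15.4 and 14.8 FPKM to 21.9, 22.0 and 20.2. Every extract library was above every control library, and the log2 fold change was 0.54 ± 0.04 (edgeR adjusted p = 0.000125). Prodh shares 11004 bases of its span with Dgcr6 on the opposite strand, and whether the counting used strand is not given. Aass, the first enzyme of lysine breakdown, had a log2 fold change of 0.02 ± 0.05.

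In a wider list of glutamine, proline and lysine genes, 4 of 14 rose and 3 fell. Dhtkd1, which acts late in lysine breakdown, rose by 1.03 ± 0.06 on the log2 scale, and Gcdh, the glutaryl-CoA dehydrogenase of the same route, rose by 0.26 ± 0.04. Aspg, an asparaginase, had a log2 fold change of -0.55 ± 0.06. Asns, the asparagine synthetase, was low in all libraries (0.321 to 0.552 FPKM in control, 1.2 to 1.5 in extract) and rose by 1.58 ± 0.23.

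Serine and glycine breakdown held the largest fall of the 43 genes. Sds, the serine dehydratase that turns serine into pyruvate and ammonia, stood at 202, 227 and 229 FPKM in control and 70.6, 85.0 and 63.6 in extract. The lowest control library was above the highest extract library by more than the whole spread within either group. The log2 fold change was -1.53 ± 0.10 (edgeR adjusted p = 3.89e-05). Sds lies on chromosome 5, at 120476526 to 120483932 on the plus strand, and shares 1062 bases with Gm15690 on the opposite strand, whose own log2 fold change was -1.92 at a mean of 408 counts per library against 16423 for Sds. Sds also shares 651 bases with Plbd2 on the opposite strand (mean 6316 counts, log2 fold change -0.20). Its relative Sdsl, in the wider list, had a log2 fold change of -1.06 ± 0.15 (chosen for naming after its value was seen).

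Agxt, the aminotransferase that removes glyoxylate with alanine and can also act on serine, stood at 113, 119 and 106 FPKM in control and 67.4, 72.8 and 65.4 in extract. The groups were far apart (log2 fold change -0.65 ± 0.05, edgeR adjusted p = 9.99e-05). Etnppl, which breaks down phosphoethanolamine, was the least abundant of the 43 genes, at 6.85, 6.46 and 6.94 FPKM in control and 3.86, 4.22 and 3.84 in extract. It was lower in every extract library, by 0.70 ± 0.06 on the log2 scale (edgeR adjusted p = 0.000122).

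The other 4 genes of the branch did not pass the test. They were Gldc, Amt and Gcsh, which encode proteins of the mitochondrial glycine cleavage system, at -0.15 ± 0.09, -0.22 ± 0.08 and 0.13 ± 0.05 on the log2 scale, and Shmt1, the cytosolic serine hydroxymethyltransferase, at 0.14 ± 0.06. Amt was nearest to the threshold among them (edgeR adjusted p = 0.0623), with 11.1 to 13.2 FPKM in control and 9.75 to 10.8 in extract, and it passed in 7 of 19 alternative settings.

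In the wider list of serine and glycine genes, 8 of 20 tested rose and 3 fell. Glyctk, a glycerate kinase, rose by 0.39 ± 0.04 on the log2 scale, and Grhpr, which reduces glyoxylate, by 0.37 ± 0.04. Glyat, which conjugates glycine to acyl-CoA, rose by 0.54 ± 0.05, and Sardh, the sarcosine dehydrogenase, by 0.50 ± 0.05.

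**Figure D3:**
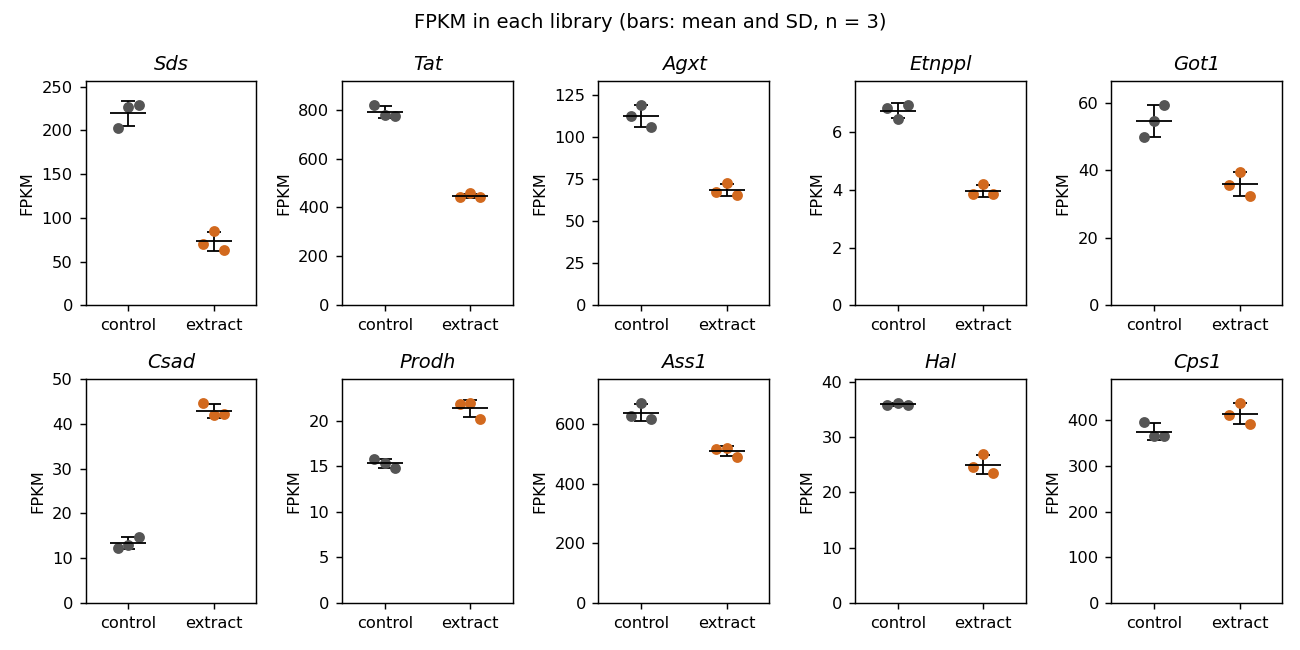
FPKM per library (y axis, linear from 0, a separate scale in each panel) of 10 of the 43 genes in the 3 control and 3 extract libraries, with bars for the mean and SD. Sds, Tat, Agxt, Etnppl, Got1, Ass1 and Hal are lower in all 3 extract libraries, Csad and Prodh are higher in all 3, and the groups overlap for Cps1.

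All 8 genes of tyrosine and tryptophan breakdown had a log2 fold change below 0, and 4 of them fell past the threshold. Of the 18071 genes tested, 9376 were below 0. Haao lay nearest to 0 among the 8 and reached 0.0098 in an alternative setting. Tat, the aminotransferase that starts tyrosine breakdown, stood at 819, 779 and 774 FPKM in control and 442, 458 and 441 in extract. Within each group the libraries lay close together, and the groups were separated by several times that spread. The log2 fold change was -0.76 ± 0.04 (edgeR adjusted p = 1.30e-05). Tat lies on chromosome 8, at 109990437 to 109999803 on the plus strand.

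Hpd, the dioxygenase that follows Tat, stood at 750, 787 and 722 FPKM in control and 599, 629 and 581 in extract. It was lower in every extract library, by 0.26 ± 0.04 on the log2 scale (edgeR adjusted p = 0.00249). Its span shares 10921 bases with Psmd9 on the opposite strand, which held a mean of 1529 counts against 95723 for Hpd. Hgd, the next enzyme, which opens the ring of homogentisate, stood at 137, 139 and 131 FPKM in control and 117, 121 and 113 in extract. The groups did not overlap, but the log2 fold change was -0.15 ± 0.04 (edgeR adjusted p = 0.0182) and 5 of 19 alternative settings did not call it, among them those without control 2, extract 1, extract 2 or extract 3 (edgeR adjusted p = 0.0606, 0.101, 0.0507 and 0.0806). Fah, the last enzyme of the route, was at 203 to 222 FPKM in control and 187 to 201 in extract and did not pass the test (-0.09 ± 0.04). For Tat, Hpd, Hgd and Fah the log2 fold changes were thus -0.76, -0.26, -0.15 and -0.09. Gstz1, the isomerase between Hgd and Fah, is part of the wider list of aromatic amino acid genes given below. It was at 0.02 ± 0.04 and did not pass the test, so the values did not shrink evenly at every step. Differences between the steps were not tested.

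In tryptophan breakdown only Kynu, the kynureninase, was called among the 4 genes. It stood at 19.7, 18.7 and 17.7 FPKM in control and 14.0, 13.2 and 13.8 in extract. All 3 extract libraries were below all 3 control libraries (log2 fold change -0.39 ± 0.05, edgeR adjusted p = 0.00130). Tdo2, the liver dioxygenase that starts the route, Kmo, which hydroxylates kynurenine, and Haao, which acts after Kynu, had log2 fold changes of -0.09 ± 0.07, -0.06 ± 0.04 and -0.02 ± 0.04. Kmo shares 5255 bases of its span with Fh1 on the opposite strand. Fh1 had a mean of 7667 counts against 8392 for Kmo, and a log2 fold change of -0.006.

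In a wider list of aromatic amino acid genes the calls were mostly upward, with 6 of 12 tested higher and 2 lower. Afmid, the formamidase that follows Tdo2, rose by 0.68 ± 0.09 on the log2 scale. Acmsd, which diverts tryptophan carbon away from NAD synthesis, had a log2 fold change of -0.66 ± 0.12, and Ddc, the aromatic amino acid decarboxylase, of -0.45 ± 0.08.

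Histidine breakdown was the one branch in which every gene fell. Hal, the histidase that releases ammonia and gives urocanate, stood at 35.7, 36.2 and 35.7 FPKM in control and 24.6, 26.9 and 23.6 in extract (log2 fold change -0.46 ± 0.05, edgeR adjusted p = 0.000341). Uroc1, the urocanase, stood at 104, 103 and 108 FPKM in control and 89.5, 94.9 and 86.0 in extract (-0.16 ± 0.04, edgeR adjusted p = 0.0297). In both genes all extract libraries were below all control libraries, and the call for Uroc1 was lost in 6 of 19 alternative settings, among them without control 1, control 3, extract 1 or extract 3 (edgeR adjusted p = 0.0509, 0.0542, 0.145 and 0.116).

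Amdhd1, which opens the imidazolone ring, stood at 51.5, 48.9 and 49.4 FPKM in control and 34.9, 36.4 and 35.9 in extract (-0.42 ± 0.04, edgeR adjusted p = 0.000352). Ftcd, which passes the formimino group to folate, stood at 118, 122 and 123 FPKM in control and 92.8, 99.8 and 84.6 in extract (-0.33 ± 0.05, edgeR adjusted p = 0.00366). Again the groups did not overlap in either gene. In a wider histidine and folate list of 4 genes, Mthfd1 rose by 0.34 ± 0.05 and Hdc, the histidine decarboxylase, had a log2 fold change of -0.63 ± 0.14 from levels under 1 FPKM in every library.

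Hal and Amdhd1 are neighbours on chromosome 10. Hal (93488768 to 93519304) is on the plus strand and Amdhd1 (93523338 to 93540033) on the minus strand, so they lie tail to tail with 4033 bases between their ends and their start sites face away from each other. The 250 bases before the annotated start of the 4 histidine genes, which moved together, are printed for comparison with Tat and Csad, from the RefSeq promoter table for GRCm38.p6. Capitals mark matches, on either strand, to any of 7 strings. TATAAA is the core of the TATA box. For the factors that bind cyclic AMP response elements, the strings searched were TGACGTCA and, as a variant of that element, TGACGCAA. For C/EBP factors, which liver holds in large amounts, the string was TTGCNNAA. The glucocorticoid receptor was searched by a short element, TGTTCT. Forkhead factors were searched by TGTTTAC. For HNF4A, a nuclear receptor of hepatocytes, it was CAAAGTCCA. No string is contained in another.
Hal (chr10:93488518-93488767, plus strand): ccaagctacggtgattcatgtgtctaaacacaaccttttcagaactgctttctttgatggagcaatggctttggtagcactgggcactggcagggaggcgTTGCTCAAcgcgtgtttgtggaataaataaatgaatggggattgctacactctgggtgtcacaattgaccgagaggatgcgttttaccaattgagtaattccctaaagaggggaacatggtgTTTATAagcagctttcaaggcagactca
Amdhd1 (chr10:93540034-93540283, minus strand): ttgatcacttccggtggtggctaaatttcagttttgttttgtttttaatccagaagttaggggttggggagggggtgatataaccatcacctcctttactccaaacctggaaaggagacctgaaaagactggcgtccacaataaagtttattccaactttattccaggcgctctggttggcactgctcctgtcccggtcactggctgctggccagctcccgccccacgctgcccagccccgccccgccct
Uroc1 (chr6:90333039-90333288, plus strand): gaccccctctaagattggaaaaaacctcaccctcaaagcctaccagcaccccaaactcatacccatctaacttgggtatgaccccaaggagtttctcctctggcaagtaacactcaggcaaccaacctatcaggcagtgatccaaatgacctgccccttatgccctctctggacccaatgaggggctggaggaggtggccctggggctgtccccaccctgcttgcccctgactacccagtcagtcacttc
Ftcd (chr10:76575398-76575647, plus strand): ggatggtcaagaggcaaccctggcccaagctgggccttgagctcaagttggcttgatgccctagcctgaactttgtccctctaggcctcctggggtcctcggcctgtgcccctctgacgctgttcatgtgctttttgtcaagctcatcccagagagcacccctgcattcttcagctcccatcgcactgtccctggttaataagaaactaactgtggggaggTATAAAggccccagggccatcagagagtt
Tat (chr8:109990186-109990435, plus strand): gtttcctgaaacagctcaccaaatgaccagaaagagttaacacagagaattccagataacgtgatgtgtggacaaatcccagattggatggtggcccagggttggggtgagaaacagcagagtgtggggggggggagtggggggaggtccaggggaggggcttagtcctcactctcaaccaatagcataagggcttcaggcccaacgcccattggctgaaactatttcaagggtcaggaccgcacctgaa
Csad (chr15:102189044-102189293, minus strand): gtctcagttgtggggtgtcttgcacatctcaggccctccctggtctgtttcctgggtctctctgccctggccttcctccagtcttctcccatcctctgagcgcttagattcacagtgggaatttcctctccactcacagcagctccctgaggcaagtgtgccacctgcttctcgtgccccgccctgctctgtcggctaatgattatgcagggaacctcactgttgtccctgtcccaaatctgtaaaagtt
Hal and Ftcd carry a match to the TATA string, on the opposite strand in Hal, whose first base is at -28 and -29 from the start, and Hal a C/EBP match at -150. The windows of Amdhd1, Uroc1, Tat and Csad hold none of the 7 letter strings. Csad has more than 1 annotated start, and the window shown is that of 1 of them.

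Among the 33 of the 43 genes with such a window, TATAAA was found in 15.2%, against 14.3% of the 27025 genes with a window. TTGCNNAA was found in 9.09%, against 10.8%, and TGTTCT in 9.09%, against 18.2%. The 3 windows with TGTTCT were those of Agxt, Haao and Bckdhb, of which Agxt fell. The 2 cyclic AMP element strings, the forkhead string and the HNF4A string were in 0 of the 33 windows and in 1.77%, 0.507%, 3.54% and 0.451% of all windows. A match describes letters only, and the absence of one says nothing of other positions or of the factor.

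The sulfur amino acid genes split by step. Of the methionine cycle, Mat1a, Ahcy and Bhmt rose and Gnmt did not pass. Of the route from homocysteine to cysteine and on to its oxidation, Cbs, Cth and Cdo1 fell, and Csad, the step from cysteine sulfinate toward taurine, rose by more than any other of the 43 genes.

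Mat1a, the liver enzyme that makes S-adenosylmethionine, stood at 832, 817 and 805 FPKM in control and 943, 993 and 954 in extract. Every extract library was higher (log2 fold change 0.30 ± 0.04, edgeR adjusted p = 0.000700). Gnmt, which uses S-adenosylmethionine to methylate glycine, was at 625 to 648 FPKM in control and 611 to 688 in extract, with a log2 fold change of 0.09 ± 0.04. Ahcy, which splits S-adenosylhomocysteine to homocysteine, stood at 249, 244 and 218 FPKM in control and 287, 308 and 260 in extract (0.32 ± 0.07, edgeR adjusted p = 0.00808). The groups did not overlap, and Gm4737, a copy 99.7% identical over 2083 bases that drew about as many counts as Ahcy, had a log2 fold change of 0.30. With its copies added, Ahcy gave 0.31.

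Bhmt, which returns homocysteine to methionine with betaine, stood at 207, 198 and 162 FPKM in control and 226, 231 and 203 in extract. Control 1 lay above extract 3, so the groups overlapped. The log2 fold change was 0.28 ± 0.08 (edgeR adjusted p = 0.0419), and 11 of 19 alternative settings did not call it, among them those without control 2, extract 1, extract 2 or extract 3 (edgeR adjusted p = 0.0914, 0.116, 0.138 and 0.0516).

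Cbs, which joins homocysteine to serine, stood at 36.4, 38.6 and 39.1 FPKM in control and 25.9, 27.4 and 26.0 in extract. The extract libraries were all well below the control libraries (log2 fold change -0.46 ± 0.04, edgeR adjusted p = 0.000214). Cth, which releases cysteine, stood at 92.1, 88.4 and 83.7 FPKM in control and 69.8, 76.7 and 67.3 in extract (-0.24 ± 0.05, edgeR adjusted p = 0.0121). Cdo1, the cysteine dioxygenase, stood at 539, 553 and 598 FPKM in control and 468, 472 and 442 in extract (-0.23 ± 0.05, edgeR adjusted p = 0.0118). In both the groups did not overlap, and each call was lost in 3 of 19 alternative settings. Without extract 1 or extract 3 the edgeR adjusted p was 0.0723 and 0.0535 for Cth and 0.0588 and 0.0549 for Cdo1. Cth shares 2231 bases with Gm43314 on the same strand, which had a mean of 502 counts against 14735 for Cth and a log2 fold change of 0.64.

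Csad, the cysteine sulfinate decarboxylase of taurine synthesis, stood at 12.3, 13.0 and 14.8 FPKM in control and 44.7, 41.9 and 42.2 in extract. All 3 extract libraries were far above all 3 control libraries. The log2 fold change was 1.75 ± 0.08 (edgeR adjusted p = 6.72e-06). Csad lies on chromosome 15, at 102176999 to 102204253 on the minus strand, and shares 1005 bases with Zfp740 on the opposite strand, whose log2 fold change was 0.19. In a wider sulfur list of 14 tested genes, 3 rose and 3 fell. Ethe1, which oxidises persulfides, had a log2 fold change of -0.91 ± 0.09, and Mat2a, the methionine adenosyltransferase of most other tissues, of -0.39 ± 0.05. Chdh, which makes betaine from choline, and Tst, a sulfurtransferase, rose by 0.28 ± 0.04 and 0.28 ± 0.05.

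The 2 branched-chain genes of the 43, Bckdha and Bckdhb, encode the E1 subunits of the branched-chain keto acid dehydrogenase and did not pass the test. Their log2 fold changes were -0.01 ± 0.04 and 0.03 ± 0.05, at 77.6 to 81.2 and 61.1 to 67.9 FPKM in control. In the wider branched-chain list 9 of 22 tested rose and 0 fell by edgeR or by DESeq2, and 1 was lower at an unadjusted p under 0.05 in edgeR. Dbt, the E2 subunit of the same complex, rose by 0.55 ± 0.06 on the log2 scale, and Ppm1k, the phosphatase that activates the complex, by 0.92 ± 0.07. Mmut, the methylmalonyl-CoA mutase, rose by 0.44 ± 0.06, and Mmab, which makes its cofactor, by 0.81 ± 0.12.

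**Figure D4:**
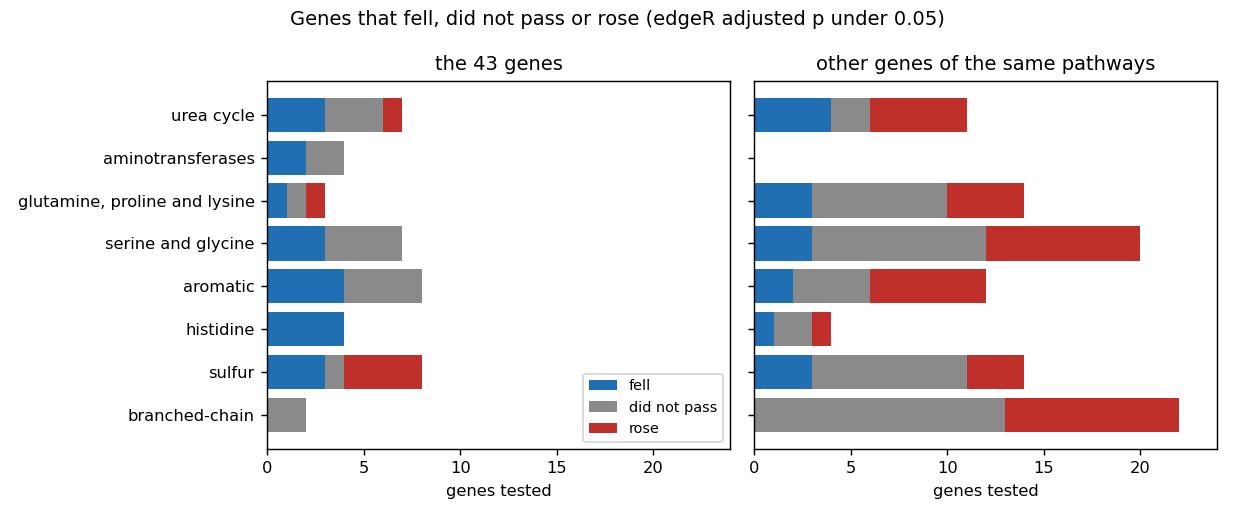
Number of genes (x axis) that rose, fell or did not pass edgeR's test in each branch, for the 43 genes and for the wider pathway lists. Histidine holds 4 of 4 that fell, sulfur 4 that rose and 3 that fell, and the wider branched-chain list 9 that rose.

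Over the 7 wider lists together, 36 of 96 tested genes rose and 16 fell, with a median log2 fold change of 0.11. In the 43 genes 6 rose and 20 fell, with a median of -0.15. Called in either direction were 54.2% of the wider lists and 60.5% of the 43. Over all genes tested 26.9% were called, 14.2% higher and 12.8% lower. Both sets were chosen with earlier results of these data known.

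The summed FPKM of a branch weighs each gene by its level, so an abundant gene can make up most of a change. Serine and glycine breakdown went from 461 ± 14.6 FPKM in control to 269 ± 19.6 in extract (SD, n = 3 in each group), tyrosine and tryptophan breakdown from 2250 ± 35.7 to 1679 ± 52.4, and histidine breakdown from 312 ± 3.98 to 243 ± 14.0. In these branches every extract library was below every control library. Mean Sds alone went from 219 to 73.0 FPKM within the serine and glycine sum. Mean Tat alone went from 791 to 447 FPKM within the tyrosine and tryptophan sum. The urea cycle went from 1643 ± 20.2 to 1510 ± 63.7, the aminotransferases from 247 ± 1.80 to 209 ± 8.77 and glutamine, proline and lysine breakdown from 112 ± 0.551 to 107 ± 6.09. Sulfur metabolism went from 2586 ± 34.3 to 2719 ± 116 and branched-chain breakdown from 144 ± 4.98 to 139 ± 3.38. Within the sulfur sum mean Mat1a went from 818 to 963 FPKM, while mean Cdo1 went from 563 to 461. The urea cycle and aminotransferase sums did not overlap between the groups, while those of the glutamine, sulfur and branched-chain branches did. The aminotransferase sum holds Got2 without its 2 copies, which were higher in extract. Gm10874 went from 6.87, 6.87 and 7.19 FPKM in control to 38.2, 41.2 and 40.1 in extract. Got2-ps1 went from 2.51, 2.21 and 1.89 to 24.6, 20.4 and 24.2. The fall of this sum thus depends on how reads were shared among the 3 loci. Together the 43 genes went from 7754 ± 93.4 to 6875 ± 281 FPKM, or from 2.22% to 2.05% of all FPKM. FPKM summed over all genes were themselves lower in extract, 331828 to 339695 against 346373 to 354060 in control. On the FPKM scale 26 of the 43 genes were lower and 4 higher without overlap between the groups, against 26.9% and 17.7% of all genes tested (44.6% in either direction), and on TMM-scaled counts (divided by library size after edgeR's correction for composition) 22 were lower and 10 higher, against 22.5% and 22.2%.

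**Figure D5:**
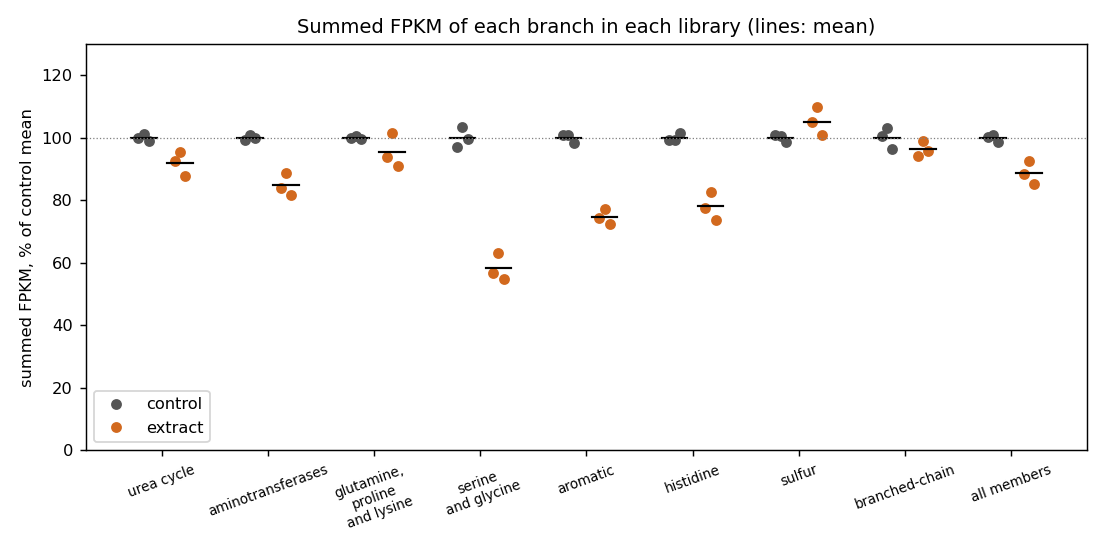
Summed FPKM of each branch in each library, as a percent of the mean of the control libraries (y axis, linear from 0), for 3 control and 3 extract libraries, with the group mean as a line. The serine and glycine mean in extract is 58.3% of control, tyrosine and tryptophan (aromatic) 74.6%, and sulfur 105%. Abundant genes weigh most in these sums, among them Sds in serine and glycine, Tat in aromatic and Mat1a in sulfur. The aminotransferase sum holds Got2 without its near-identical copies, which were higher in extract.

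The libraries of the extract group kept an order over these genes. Extract 2 held the highest FPKM of the 3 extract libraries for 40 of the 43 genes, against 49.1% of the 3901 genes of similar or higher level, and extract 3 the lowest for 32 of 43, against 47.4%. On TMM-scaled counts extract 2 was highest for 34 of 43, against 36.6%. Without the extract 2 library 4 of the 43 genes rose and 19 fell. The spread within groups was small: the median coefficient of variation of the 43 genes was 4.34% in control and 4.59% in extract, against 10.6% and 9.42% over all genes tested. Of the 43 genes, 35 were among the 1000 highest by control FPKM. Spread was not compared with genes of similar level, so it is not shown to be particular to these genes.

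Amino acid transporters of liver changed in both directions, with 9 of 30 tested higher and 6 lower. Slc16a10, a carrier of aromatic amino acids, rose by 0.52 ± 0.05 on the log2 scale, and Slc6a6, the taurine transporter, by 0.41 ± 0.05. Slc38a2, a sodium-coupled carrier of small neutral amino acids, had a log2 fold change of -0.37 ± 0.04, and Slc43a2, a carrier of large neutral amino acids, of -0.63 ± 0.09.

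Of 28 genes for regulators of amino acid catabolism, 9 rose and 11 fell. Tsc22d3, a glucocorticoid-induced gene, stood at 52.2, 50.6 and 51.2 FPKM in control and 19.8, 19.2 and 18.6 in extract, with no overlap (log2 fold change -1.36 ± 0.04, edgeR adjusted p = 3.26e-06). Nr0b2, a repressor induced by bile acids, was at -0.94 ± 0.06. Foxa2 and Prox1, transcription factors of hepatocytes, rose by 1.32 ± 0.07 and 0.96 ± 0.06. Also in this list, and chosen for naming after their values were seen, were Klf15, a factor known to induce amino acid breakdown (-0.58 ± 0.04), Ppargc1a, a coactivator of fasting genes (-0.89 ± 0.09), Gcgr, the glucagon receptor (-0.15 ± 0.04), and Nr3c1, the glucocorticoid receptor, which rose by 0.54 ± 0.06.

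Of 21 genes of the amino acid response, the program that the factor ATF4 drives when amino acids are short, 6 rose and 3 fell. Asns rose as given above, Shmt2, the mitochondrial serine hydroxymethyltransferase, and Eif4ebp1, a translation repressor, each rose by 0.26 on the log2 scale, and Ddit4, an inhibitor of mTORC1 that glucocorticoids also induce, had a log2 fold change of -1.91 ± 0.07. No link between these genes and the 43 was tested.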

How the data were processed

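Liver RNA of 3 control and 3 extract libraries was sequenced. Tools listed in the submitters' processing notes are StringTie 1.3.4d, HISAT2 2.0.4, edgeR and cutadapt 1.9, with no role; build and strand use are not given in the sources used here. Their deposited table, made by the authors, holds an estimated count and an FPKM per gene and library; low counts peak at 4, so a count may not be 1 read. 6 columns of per-sample values that match no sample were not used. Coordinates are the table's; they lie within the GENCODE M21 (GRCm38) span for 99.2% of 30796 shared genes.

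Counts were rounded, filtered with filterByExpr (18071 genes kept), scaled by TMM factors and tested with edgeR 4.0.16 in R 4.3.3 (glmQLFit and glmQLFTest, Benjamini-Hochberg). The standard error is the log2 fold change over the root of F. limma 3.58.1 on log2(FPKM + 0.5), DESeq2 1.42.0, other scalings, filters and left-out libraries were alternatives. Near-identical copies were found by aligning transcripts (at least 90% identity over 200 bases). The step was tested on simulated data, in which far fewer genes were changed than were called here. There edgeR recovered 32.8%, 76.1% and 97.0% of genes changed by 0.5, 1 and 2 on the log2 scale. Of edgeR's calls 6.80% were false, of DESeq2's 19.5% and of limma's 0.855%. All 43 genes, and the 4 genes with the smallest p in each wider list, are named, except 1 that is not reported here. The 43 genes and the lists were chosen with earlier results of these data known.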

Additional observations from a re-analysis of the deposited data

How the results depend on the processing

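The direction of the 26 called genes held in 19 alternative settings, except for Got2, which turned to 0.16 when the counts of its copies were added, an alternative chosen after seeing the data, as was limma on FPKM with TMM factors. The calls of Bhmt (11 of 19 settings) and Cps1 (9 of 19) were lost most often. Tested against a fold of 1.2, 1916 genes were called, 978 higher and 938 lower, and 11 of the 43, 2 higher and 9 lower. With limma on FPKM without a filter 1485 genes were higher, and 3 of the 43. Leaving out 1 library at a time gave 3237 to 4706 calls, 1776 to 2553 higher and 1442 to 2153 lower, and among the 43 genes 18 to 26 calls, 4 to 7 higher and 13 to 20 lower. The lowest counts came without extract 2 (3237 calls), without control 2 (1442 lower) and, for the 43, without extract 1 or extract 3 (13 lower each). Of all calls 52.6% were higher, against 40.7% with limma on FPKM as deposited and 56.0% with TMM factors on FPKM. Over genes kept by both fits, limma on FPKM as deposited gave log2 fold changes lower by a median of 0.06. The labels do not say whether same-numbered libraries were paired. After each gene's group mean was subtracted, same-numbered libraries had correlations of -0.141, -0.00188 and -0.0924. Those with different numbers had correlations of -0.0843 to 0.166. With 3 libraries a group this check cannot show whether the samples were paired. With a replicate block 3746 genes were called, 24 of the 43 among them (5 higher and 19 lower, with Cps1 and Uroc1 lost). As a share of all FPKM the tyrosine and tryptophan sum in extract was 0.777 of control, against 0.746 for the FPKM sum. The 3 libraries a group limit the precision, and a gene that did not pass is not shown to be without a change.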
